A study of Mus musculus with 6 samples.

Results

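The 10 genes described here are the semaphorins Sema3a, Sema3c, Sema3e, Sema4c, Sema5a and Sema7a, the plexins Plxna1 and Plxnb2, and the neuropilins Nrp1 and Nrp2. They were taken by symbol and matched 10 of the 55364 Ensembl genes in the raw count tables, 1 identifier each. Primary lung fibroblasts (LFs) were isolated from 8 to 10 week old C57Bl6/J mice and grown to passage 2 to 3. In all 6 libraries the cells had been held for 24 h in serum-free medium with 10 ng/ml TGFβ1, so no unstimulated cells enter the comparison. The groups were 3 libraries of wt LFs and 3 of LFs that the labels call TKS5 knockout and the study names Tks5+/-, from littermates carrying 1 allele of Sh3pxd2a without exon 11. That exon is removed in every cell type by a CMV-Cre transgene, and which of the study's deleted alleles (tm1b or tm1d) these LFs carried was not given in the sources used here. The RNA was read from the poly(A) end of the transcripts by Quant-Seq, and libraries held 1344507 to 2369882 counts. The study describes its samples as independent, but whether each library came from a separate mouse was not given in the sources used here, so p-values measure the spread between these libraries.

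Semaphorins are guidance proteins that share a sema domain and steer the cytoskeleton and adhesion of the cell that receives them. Class 3 members are secreted and most of them need a neuropilin to hold the ligand and a plexin to signal, while members of classes 4 to 6 span the membrane and bind plexins directly. Plexins carry a GTPase-activating domain that acts on small GTPases of the R-Ras and Rap kind, and neuropilins, with short cytoplasmic tails, also serve as co-receptors of VEGF. Sema7a is tethered to the membrane by a GPI anchor, binds integrins with an Itgb1 chain and Plxnc1, and is known in the lung for its part in TGFβ-driven fibrosis. The comparison asked which of these genes differed in RNA between TGFβ-exposed Tks5+/- and wt LFs.

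Sh3pxd2a, the gene of Tks5, was at 113 ± 16.5 counts per 1000000 of the scaled library size (CPM; SD, n = 3) in wt LFs, against 138 ± 11.1 (SD, n = 3) in LFs labelled Tks5+/-, with a log2 fold change of 0.29 (SE, the standard error, 0.20, edgeR adjusted p = 0.249). Its reads come from the end of a transcript of 15 exons, outside exon 11, so they do not count the deleted exon itself. The study reports reduced Tks5 mRNA by quantitative RT-PCR in Tks5+/- LFs. No such reduction was seen in these reads (95% interval -0.13 to 0.71 for the log2 fold change). Whether the deleted allele still gives reads at this end was not tested. The reads thus leave the genotype unchecked, and each direction below rests on the labels. The fibroblast markers were counted in every group, 10 of 10 were tested, and their summed level was 4340 to 5820 CPM in wt LFs and 5740 to 8890 in LFs labelled Tks5+/-. Of 10 epithelial markers, Sftpc, Sftpb, Sftpa1 and Scgb1a1 had no count in any library, but others were counted. Cdh1 had 17, 8 and 58 counts in wt LFs, against 0 in each Tks5+/- library, Cldn4 had 23, 15 and 50, against 0, 3 and 0, and Ager had 20, 18 and 35, against 68, 103 and 57. The part of epithelial RNA in the values below was not tested. The 12 macrophage markers summed to 353 and 321 CPM in wt replicates 1 and 2, to 1870 in wt replicate 3, and to 121 to 139 in LFs labelled Tks5+/-. The 12 endothelial markers summed to 136 to 174 CPM in wt LFs and to 51.5 to 76.8 in LFs labelled Tks5+/-. Of the Y-linked genes, Ddx3y went from 85.6 ± 8.07 CPM (SD, n = 3) to 11.9 ± 1.62 (SD, n = 3; edgeR adjusted p = 1.45e-08). Eif2s3y was not called (edgeR adjusted p = 0.688), and Uty and Kdm5d were counted in both groups but not tested. Xist had no count in any library. The sex of the mice behind each library was not given in the sources used here, and its part in the values below was not tested.

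A gene was called where edgeR's quasi-likelihood test gave a Benjamini-Hochberg adjusted p under 0.05 over all genes tested and a fold change of at least 1.2, and every adjusted p below comes from this test unless another is named. Of the 10 genes, 9 had enough reads to be tested and Sema3e had not. Nrp2, Plxna1, Plxnb2 and Sema7a were lower in LFs labelled Tks5+/-, none was higher, and 5 were not called. Sema7a had enough reads for the test in the wt libraries alone, so it could hardly be called higher. The 4 lower genes were 44.4% of the 9 tested, where 22.1% of all 10346 tested genes were called lower, 22.8% higher and 44.9% in either direction. The median log2 fold change of the 9 was -0.84, against -0.046 over all genes tested. For 5 of the 9 (55.6%) the values of both groups did not overlap, close to the 53.8% of all tested genes. The calls also moved with transcript length. All genes tested were split into 4 equal groups by the length of their longest annotated transcript, and 6 of the members fell in the group of longest transcripts and 3 in the next. In the group of longest transcripts, 36.2% of genes were called lower and 6.27% higher, with a median log2 fold change of -0.51. Once the dependence on transcript length was removed library by library (the length correction), 2 of the 9 members were called lower, Sema7a and Plxna1, and 0 higher.

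**Figure D1:**
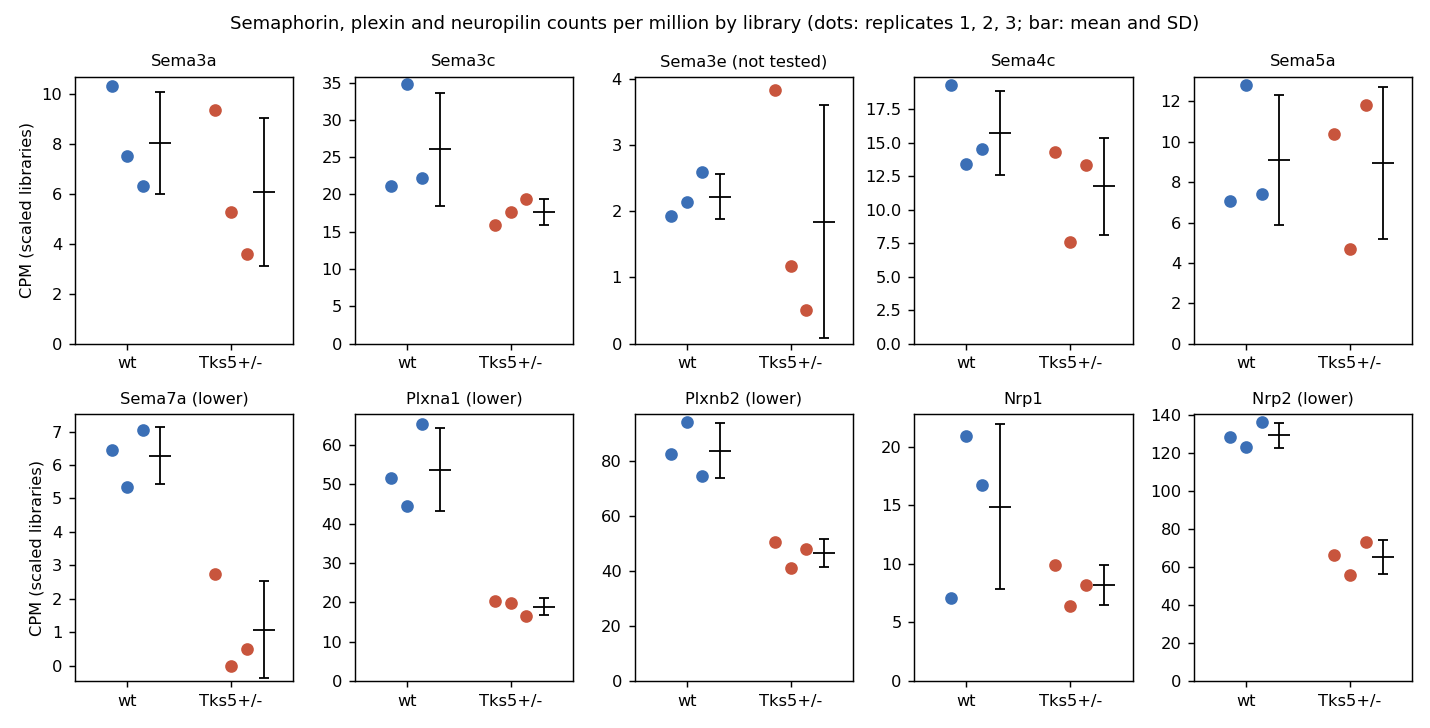
CPM of the 10 genes (vertical axis, from scaled library sizes) by group, with 3 libraries in each. Dots are replicates 1, 2 and 3 from left to right, and the bar beside them is the mean with its SD. The groups lie apart for Sema3c, Sema7a, Plxna1, Plxnb2 and Nrp2, and Sema3c was not called.

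Neuropilins bind class 3 semaphorins and VEGF at the cell surface. Nrp2 (ENSMUSG00000025969) is a forward-strand gene of chromosome 1 (GRCm38, 62703285 to 62818695). It had 199, 229 and 366 counts in wt libraries 1 to 3, which came to 128, 123 and 136 CPM. In LFs labelled Tks5+/- it had 121, 95 and 143 counts, or 66.4, 55.6 and 73.2 CPM. The lowest wt library thus lay well above the highest Tks5+/- library, and the wt values were close together. The mean fell from 129 ± 6.61 CPM (SD, n = 3) to 65.1 ± 8.87 (SD, n = 3), and the log2 fold change was -0.98 (SE 0.21, adjusted p = 5.32e-04), or 1.98-fold lower. The exact permutation p of the CPM, two-sided, was 0.1, the smallest that 3 libraries against 3 allow. Nrp2 was lower and called in every fit that left out 1 library, from -1.04 to -0.85. With the length correction its log2 fold change was -0.50 (adjusted p = 0.0549), and it was not called.

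Nrp1 (ENSMUSG00000025810; chromosome 8 of GRCm38, 128358604 to 128503363, forward strand) was read more shallowly. It was at 7.08, 20.9 and 16.7 CPM in wt libraries 1 to 3, against 9.88, 6.44 and 8.19 CPM in LFs labelled Tks5+/-. Wt replicate 1 lay among the Tks5+/- libraries and the other wt libraries lay above them. The log2 fold change of -0.88 was not called (SE 0.39, 95% interval -1.69 to -0.07, adjusted p = 0.0692; exact two-sided permutation test, p = 0.3). Without wt replicate 1, whose 11 counts set the overlap, Nrp1 was lower and called (-1.18, adjusted p = 0.0156). Within a library the ratio of Nrp1 to Nrp2 counts was 0.0553, 0.170 and 0.123 in wt LFs and 0.149, 0.116 and 0.112 in LFs labelled Tks5+/-. The ratios overlapped between the groups (exact two-sided permutation test on log2 ratios, p = 0.9). Both genes are also expressed by endothelial cells. Egfl7, the endothelial marker with most reads, went from 65.7 ± 8.63 CPM (SD, n = 3) to 20.7 ± 2.47 (SD, n = 3). Of the 6 tested endothelial markers 4 were lower (Kdr, Pecam1, Emcn and Egfl7) and 0 higher, and Flt1 and Ramp2 were not called. Of all tested genes 22.1% were called lower. Kdr, Pecam1 and Emcn had enough reads for the test in the wt libraries alone, so they could hardly be called higher. In bulk RNA, fewer cells of a type and less RNA per cell cannot be told apart, and the part of endothelial RNA in the neuropilin values was not tested.

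Plexins are the signalling receptors of the family. Plxna1 (ENSMUSG00000030084), a partner of the neuropilins in receptors for class 3 semaphorins, is a reverse-strand gene of chromosome 6 (GRCm38, 89316314 to 89362620). It was at 51.5, 44.4 and 65.3 CPM in wt libraries 1 to 3, against 20.3, 19.9 and 16.4 CPM in LFs labelled Tks5+/-. Every wt library was above every Tks5+/- library, and the latter spanned a narrow range. The mean fell from 53.7 ± 10.6 CPM (SD, n = 3) to 18.9 ± 2.16 (SD, n = 3), 2.86-fold lower, and edgeR put the log2 fold change at -1.52 with an SE of 0.25 (adjusted p = 4.39e-05). Plxna1 was lower and called under all 19 alternatives, from -1.94 to -0.88, and the length correction gave -0.90 (adjusted p = 0.00695). The 3' end of Plxna1 overlaps Gm26811 on the opposite strand, and Gm26811 had no count in any library.

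Plxnb2 (ENSMUSG00000036606; chromosome 15 of GRCm38, 89155549 to 89180788, reverse strand) is the known receptor of Sema4c. It was at 82.4, 94.2 and 74.5 CPM in wt libraries 1 to 3, against 50.5, 41.0 and 48.1 CPM in LFs labelled Tks5+/-. The groups did not overlap. Plxnb2 fell from 83.7 ± 9.89 CPM (SD, n = 3) to 46.5 ± 4.96 (SD, n = 3), 1.79-fold lower with a log2 fold change of -0.84 (SE 0.22, adjusted p = 0.00285). With the length correction it was -0.38 (adjusted p = 0.164) and not called. The ratio of Plxnb2 to Plxna1 within a library was 1.6, 2.12 and 1.14 in wt LFs and 2.49, 2.06 and 2.94 in LFs labelled Tks5+/-, with overlap between them (p = 0.2 by exact permutation of the log2 ratios, two-sided).

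Sema7a (ENSMUSG00000038264), a forward-strand gene of chromosome 9 (GRCm38, 57940112 to 57962865), had few reads. It had 10, 10 and 19 counts in wt libraries 1 to 3, against 5, 0 and 1 in LFs labelled Tks5+/-, where a count of 0 allows up to 3 counts. In CPM these were 6.44, 5.35 and 7.04 against 2.74, 0 and 0.512. The wt libraries were close to each other and all above the others. The log2 fold change was -2.46 (SE 0.69, 95% interval -3.88 to -1.05, adjusted p = 0.00451). The summed counts of 39 and 6 gave a ratio of 5.83 after scaling, with an exact 95% counting interval of 2.45 to 16.8, which covers counting error only. Sema7a was lower and called in all 18 alternatives that tested it, but its size moved with single libraries: without Tks5+/- replicate 1 the log2 fold change was -4.20, and without replicate 2 it was -1.91. With the length correction it was -2.38 (adjusted p = 0.00668). The study itself singled out Sema7a from these libraries, so its call is not independent evidence.

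Of the known receptors of Sema7a, Itga1 was lower, Itgb1 was not called and Plxnc1 could not be tested. Itga1, the integrin chain that pairs with Itgb1 to bind collagen and Sema7a, was at 43.1, 58.9 and 24.5 CPM in wt libraries 1 to 3, against 11, 5.85 and 7.16 in LFs labelled Tks5+/-. It fell by 2.37 on the log2 scale (SE 0.35, adjusted p = 1.11e-05), and was lower and called under all 19 alternatives. Its transcript is 10967 bases long, and the length correction gave -1.66 (adjusted p = 4.3e-04). Itgb1, shared by many integrins, was at 480, 385 and 407 CPM in wt LFs, against 421, 380 and 551, and was not called, with a 95% interval of -0.34 to 0.52 for the log2 fold change. Plxnc1 had at most 3 counts in every library.

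The secreted class 3 semaphorins were not called among the 10 genes. Sema3c (ENSMUSG00000028780) signals through neuropilins and plexins of the A and D classes. It had 33, 65 and 60 counts in wt libraries 1 to 3, or 21.2, 34.8 and 22.2 CPM, and 29, 30 and 38 counts in LFs labelled Tks5+/-, or 15.9, 17.6 and 19.4 CPM. The groups did not overlap, by a gap smaller than the spread of the wt libraries, and the log2 fold change of -0.56 was not called (SE 0.29, 95% interval -1.15 to 0.03, adjusted p = 0.115). Sema3a (ENSMUSG00000028883), the classical repulsive ligand of Nrp1, was at 10.3, 7.49 and 6.30 CPM in wt LFs and 9.33, 5.27 and 3.58 in LFs labelled Tks5+/-. Its groups overlapped, and the log2 fold change was -0.38 (95% interval -1.30 to 0.55, adjusted p = 0.509). Sema3e (ENSMUSG00000063531), which can bind Plxnd1 without a neuropilin, had 3, 4 and 7 counts in wt LFs, against 7, 2 and 1 in LFs labelled Tks5+/-, too few for the test. These 3 genes and Sema3d lie on chromosome 5 of GRCm38, Sema3a from 13125414 to 13602565, Sema3e from 14025276 to 14256689 and Sema3c from 17574281 to 17730268, all on the forward strand.

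The membrane-spanning semaphorins were not called either. Sema4c (ENSMUSG00000026121; chromosome 1 of GRCm38, 36548639 to 36558349, reverse strand) was at 19.3, 13.4 and 14.5 CPM in wt libraries 1 to 3. In LFs labelled Tks5+/- it was at 14.3, 7.61 and 13.3 CPM, so the groups overlapped and replicate 2 was the lowest. Its log2 fold change was -0.40 (95% interval -1.10 to 0.30, adjusted p = 0.346). Sema5a (ENSMUSG00000022231; chromosome 15 of GRCm38, 32244810 to 32696341, forward strand), which carries thrombospondin repeats, was at 7.08, 12.8 and 7.42 CPM in wt LFs and 10.4, 4.68 and 11.8 in LFs labelled Tks5+/-. The values were interleaved, and the log2 fold change was -0.0067 (95% interval -0.87 to 0.85, adjusted p = 0.991). Its transcript of 10809 bases was the longest among the 10 genes, and the length correction gave 0.69 (adjusted p = 0.186).

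The letters before the start of 3 members are shown because they hold the GC boxes, binding motifs of Sp1-type factors, that were counted in called and uncalled members. They are the 120 bases before the RefSeq start on GRCm38.p6, in the direction of transcription. Capitals mark GC boxes, the letters GGGCGG or, on the other strand, CCGCCC. Sema7a (chr9:57939992-57940111, forward strand) and Plxnb2 (chr15:89180789-89180908, reverse strand) were lower in LFs labelled Tks5+/-, and Sema4c (chr1:36558382-36558501, reverse strand) was not called.
Sema7a: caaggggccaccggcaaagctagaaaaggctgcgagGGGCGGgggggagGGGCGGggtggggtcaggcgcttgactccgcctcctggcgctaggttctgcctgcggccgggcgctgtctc
Plxnb2: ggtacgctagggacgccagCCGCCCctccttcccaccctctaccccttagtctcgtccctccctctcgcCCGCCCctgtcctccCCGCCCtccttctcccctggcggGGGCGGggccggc
Sema4c: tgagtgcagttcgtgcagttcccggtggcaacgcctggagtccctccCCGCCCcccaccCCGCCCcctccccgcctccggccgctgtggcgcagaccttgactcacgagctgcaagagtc
The windows hold 2 GC boxes before Sema7a, 4 before Plxnb2 and 2 before Sema4c. Each of the 3 windows lies outside the GENCODE bounds of its own gene, and overlap with other genes was not checked. Of the 10 genes, 9 had an entry in the RefSeq promoter table and 8 of those held at least 1 GC box in any window of this size. Plxnb2 and Sema4c each had 2 windows, and the one not shown lies inside the gene. Sema3a held none in its window. Of all 32851 promoter windows 26.5% held one, a share of windows and not of genes. The boxes are thus found before called and uncalled members alike, and a match of letters is a description only.

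**Figure D2:**
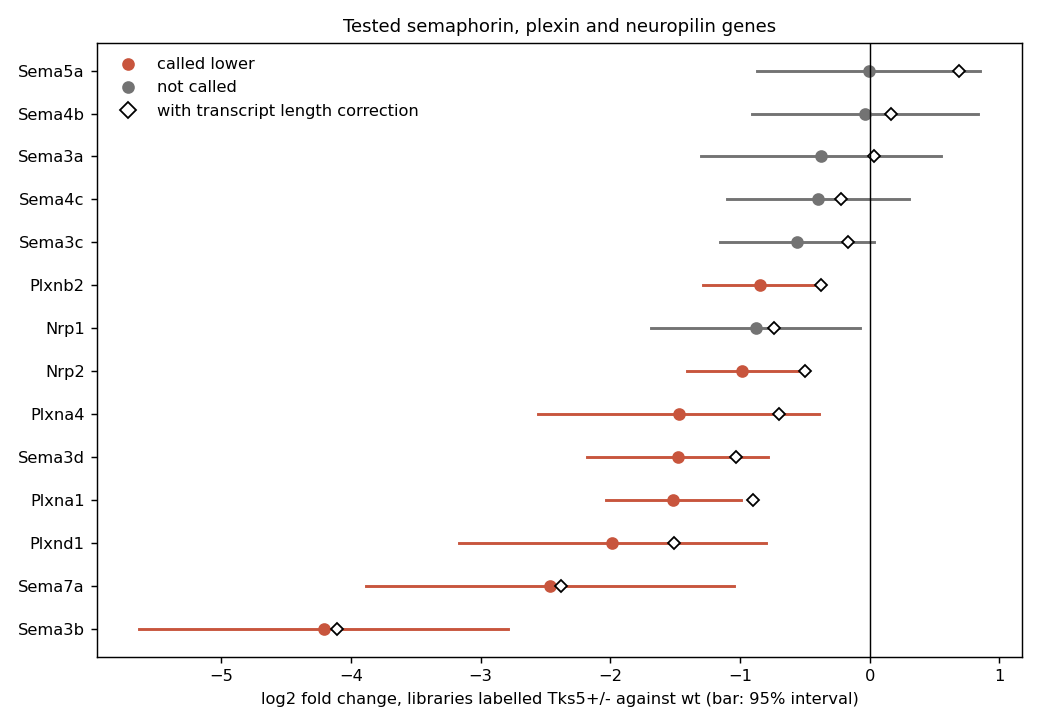
log2 fold change of the 14 tested semaphorin, plexin and neuropilin genes in LFs labelled Tks5+/- against wt (horizontal axis), with 95% intervals. Filled dots are the fit as reported, and open diamonds the fit with each library corrected for transcript length. The values run from -4.21 for Sema3b to -0.0067 for Sema5a, and the diamond of Sema5a lies at 0.69.

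The remaining genes of the family were taken from a list of 21 other semaphorins and plexins. Of these, 5 were tested and 4 were lower, 0 higher and 1 not called. Over all 31 genes of the family 14 were tested and 8 were lower. Of all tested genes 22.1%, and 36.2% of those with the longest transcripts, were called lower. Of the 8, Sema7a, Sema3b and Plxnd1 had at least 10 counts in each wt library and at most 5 in each Tks5+/- library. These genes had enough reads for the test in the wt libraries alone, so they could hardly be called higher. The same held for Plxna4, with 32, 37 and 15 counts in wt libraries against 17, 5 and 7. With at least 10 counts required in every library, 1 of the other family genes was called lower. Sema3b, a secreted semaphorin known as a growth inhibitor in lung tumour cells, had 13, 31 and 24 counts in wt libraries 1 to 3, against 0, 1 and 2 in LFs labelled Tks5+/-. The ratio of its summed and scaled counts was 20.3 (exact 95% counting interval 6.66 to 101), with an adjusted p of 2.46e-05. The fitted log2 fold change of Sema3b was -4.21, and moved to -4.99 without Tks5+/- replicate 3 and to -3.63 without replicate 1. Sema3d fell from 24.6 ± 7.64 CPM (SD, n = 3) to 8.65 ± 2.16 (SD, n = 3) without overlap, and the log2 fold change was -1.48 (SE 0.34, adjusted p = 0.00109). Both stayed called with the length correction, at -4.11 for Sema3b and -1.03 for Sema3d. The uncalled gene was Sema4b, at 7.55 ± 3.43 CPM (SD, n = 3) and 7.61 ± 1.13 (SD, n = 3).

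Plxnd1, the receptor of Sema3e, was at 7.08, 6.42 and 6.67 CPM in wt libraries 1 to 3, against 2.74, 1.76 and 0.512 in LFs labelled Tks5+/-. Its log2 fold change was -1.99 (SE 0.57, adjusted p = 0.00609), and it was not called without Tks5+/- replicate 3 (-1.51, adjusted p = 0.0534) or by DESeq2 (adjusted p = 0.065). Plxna4, another partner of neuropilins, was at 20.6, 19.8 and 5.56 CPM in wt LFs, against 9.33, 2.93 and 3.58 in LFs labelled Tks5+/-. Wt replicate 3 lay among the latter. The log2 fold change of -1.47 (adjusted p = 0.0257) lost its call in 9 of 18 alternatives. These were the fits without wt library 1 or 2 (adjusted p = 0.101 and 0.0957) or Tks5+/- library 2 or 3 (0.132 and 0.119), DESeq2 (0.0607), limma on the authors' normalized counts (0.0669), voom (0.0795), the length correction (-0.70, adjusted p = 0.264) and length with the replicate block (0.21). Without Tks5+/- replicate 1 the log2 fold change of Plxna4 was -2.10. So all 4 tested plexins were called lower, but Plxnb2 and Plxna4 not with the length correction. Plxnd1 and Plxna4 had enough reads for the test in the wt libraries alone. Of all tested genes 22.1% were called lower.

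Over the whole family 17 genes could not be tested, Sema3e among them. Sema5b and Plxnb3 had no count in any library, and Sema3g, Sema4f, Sema4g and Plxnc1 had at most 3 counts in each. The others were Sema3f, Sema4a, Sema4d, Sema6a, Sema6b, Sema6c, Sema6d, Plxna2, Plxna3 and Plxnb1. Plxnb1 had 3, 10 and 15 counts in wt libraries 1 to 3, against 2, 0 and 1 in LFs labelled Tks5+/-. Sema4a, a semaphorin of immune cells, had 2, 3 and 13 counts in wt LFs, against 1, 2 and 0 in LFs labelled Tks5+/-, and Sema3f had 6, 3 and 28 and 4, 2 and 0. In both, wt replicate 3, the library with most macrophage marker reads, held most of the reads, and the part of macrophage RNA in these values was not tested. The 4 members that were lower were called without wt replicate 3 as well, and the count of members called lower stayed at 4.

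**Figure D3:**
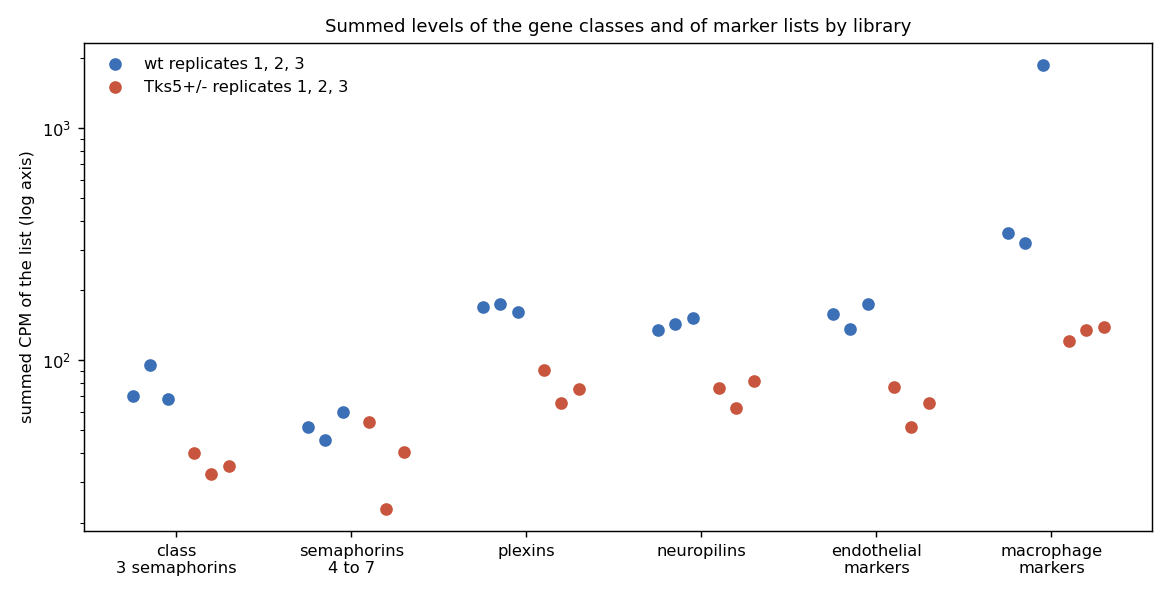
Summed CPM (vertical log axis) of the 7 class 3 semaphorins, the 13 semaphorins of classes 4 to 7, the 9 plexins and the 2 neuropilins in each library, beside the 12 endothelial and 12 macrophage markers. Blue dots are wt libraries and red dots Tks5+/- libraries, and the groups overlap only for the semaphorins of classes 4 to 7.

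Summed over each class, the class 3 semaphorins came to 68.2 to 95.2 CPM in wt LFs and 32.2 to 40.0 in LFs labelled Tks5+/-. The 9 plexins came to 162 to 175 and 65.6 to 91.1 CPM, and the 2 neuropilins to 135 to 153 and 62.0 to 81.4. The 13 semaphorins of classes 4 to 7, at 45.5 to 59.7 and 22.8 to 54.3 CPM, overlapped between the groups. The sums of all 31 genes were 427 to 460 CPM in wt LFs and 183 to 262 in LFs labelled Tks5+/-.

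**Figure D4:**
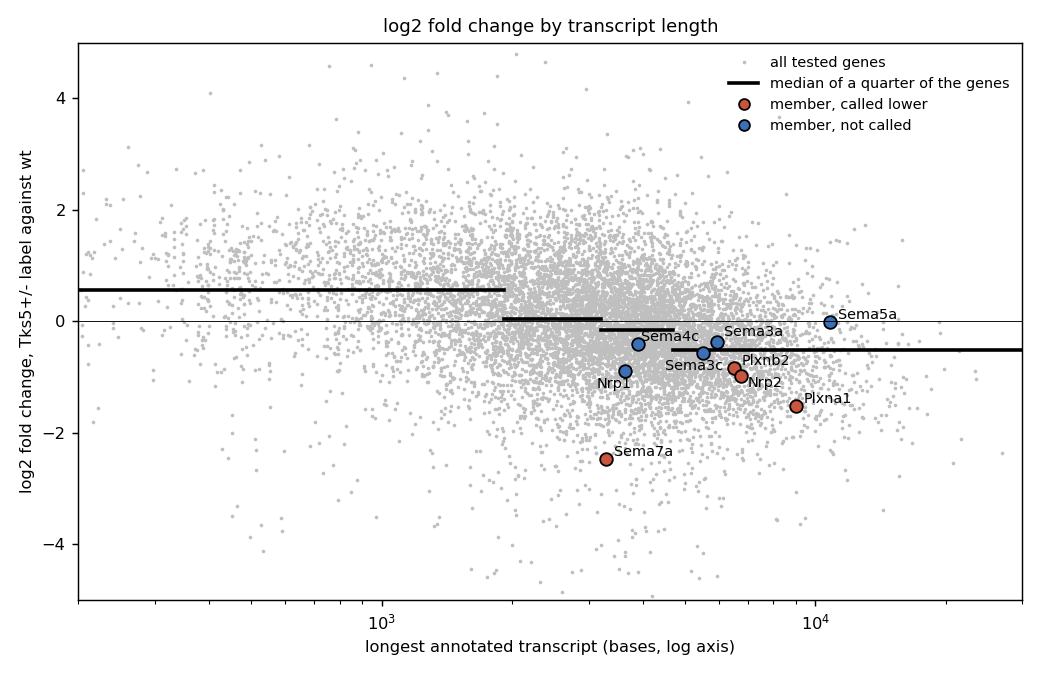
log2 fold change in LFs labelled Tks5+/- against wt (vertical axis) by the longest annotated transcript of each gene in bases (horizontal log axis), for all tested genes (grey, without those beyond 5 in either direction or outside the length axis) and the 9 tested members. Black lines are the medians of the 4 groups of genes by length, which go from 0.565 for the shortest to -0.51 for the longest. Plxna1, Nrp2 and Plxnb2 lie below the line of the longest group and Sema5a above it.

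Genes that act below plexins and neuropilins were called in both directions. Of 39 signalling partners, 35 were tested, and 8 were lower, 4 higher and 23 not called, with a median log2 fold change of -0.031. Of all tested genes 22.1% were called lower and 22.8% higher. Among the small GTPases of the list Rras2 and Rap1a were higher, and Mras (-0.79, adjusted p = 0.0104) and Rnd3 (-1.485, adjusted p = 0.0209) were lower. Rnd3 had enough reads for the test in the wt libraries alone. Rras, Rap1b, Rhoa, Rac1, Rnd1, Rnd2 and Rhod were not called. Rras2, a GTPase of the R-Ras kind on which plexins act, was at 106, 94.2 and 84.9 CPM in wt libraries 1 to 3, against 188, 214 and 249 in LFs labelled Tks5+/-, a log2 fold change of 1.2 (SE 0.21, adjusted p = 6.83e-05). Rap1a, a substrate of the plexin GTPase-activating domain, was at 48.3, 53.5 and 48.2 CPM in wt LFs, against 95.5, 109 and 121, a log2 fold change of 1.12 (adjusted p = 1.72e-04). Both genes were higher and called under all 19 alternatives, the length correction included. Cfl1, the actin-severing protein cofilin, rose by 0.80 (adjusted p = 0.00254), and was not called with scaling by library totals (0.38, adjusted p = 0.104) or with the authors' normalized counts and limma (0.43, adjusted p = 0.136). Sh3bp1, a GTPase-activating protein bound by plexins in semaphorin signalling, was at 11.6, 15.5 and 7.42 CPM in wt LFs, against 27.4, 12.3 and 31.7, and rose by 1.08 (adjusted p = 0.0176) although the groups overlapped. Sh3bp1 lost its call when wt library 3 was left out (adjusted p = 0.0947) or Tks5+/- library 1 or 3 (0.0561 and 0.1), with library totals (0.137) or with DESeq2 (0.0681). The 3' ends of Cfl1 and Sh3bp1 overlap Snx32 and 1700027A07Rik on the opposite strand.

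The lower partners with the smallest adjusted p were Gsk3b, Nedd9, Arhgef12 and Rasa1. Gsk3b, a kinase in the collapse response to Sema3a, was at 52.8, 71.7 and 53.0 CPM in wt libraries 1 to 3, against 23.6, 21.1 and 28.7 in LFs labelled Tks5+/- (log2 fold change -1.27, adjusted p = 1.99e-04; -0.68 with the length correction, adjusted p = 0.0281). Nedd9, a focal adhesion scaffold, fell by 0.94 (adjusted p = 0.00166) and Rasa1, which turns off Ras, fell by 1.57 (adjusted p = 0.00226). Rasa1 had 29, 28 and 43 counts in wt libraries against 10, 14 and 6, enough for the test in the wt libraries alone. Arhgef12, which links B-class plexins to RhoA, fell by 0.98 (adjusted p = 0.00208), and with the length correction was at -0.27 (adjusted p = 0.398) and not called. The end of Arhgef12 overlaps Gm5831 on the opposite strand. Rhoa, Rac1 and Gipc1, the adaptor of the neuropilin tail, were not called, at log2 fold changes of -0.0070, 0.16 and 0.12, and the ends of Rhoa and Rac1 overlap Gm37401 and Daglb on the opposite strand. With the length correction 4 partners in place of 8 were called lower and 6 in place of 4 higher.

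**Figure D5:**
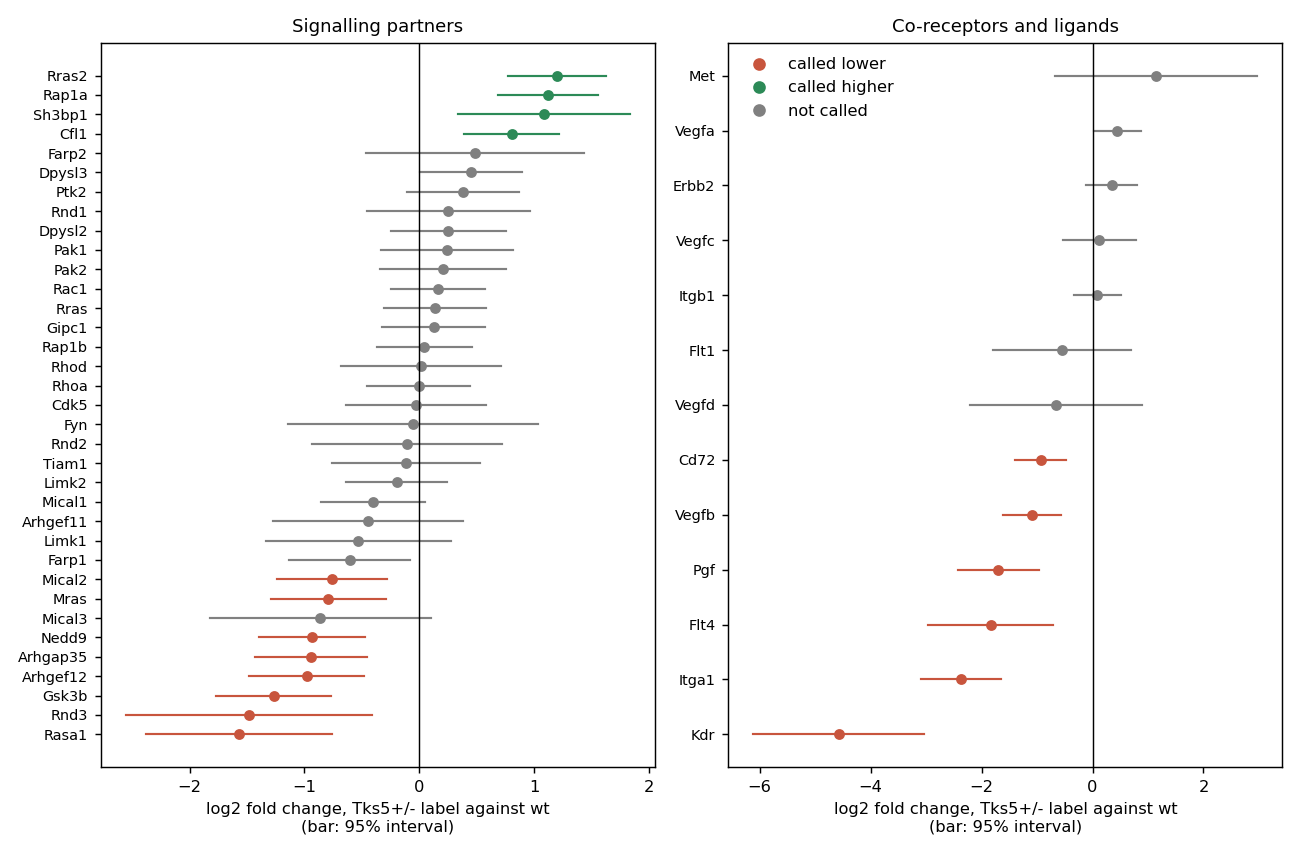
log2 fold change with 95% intervals in LFs labelled Tks5+/- against wt for the 35 tested signalling partners (left) and the 13 tested co-receptors and ligands (right). Red marks genes called lower, green genes called higher and grey genes not called. The left panel runs from -1.57 for Rasa1 to 1.2 for Rras2, and in the right panel 6 genes were lower and 0 higher.

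Of 17 co-receptors and neuropilin ligands, 13 were tested, and 6 were lower, 0 higher and 7 not called, with a median log2 fold change of -0.66. Of all tested genes 44.9% were called in either direction and 22.1% lower. Besides Itga1 the lower genes were Kdr, Pgf, Vegfb, Flt4 and Cd72, whose 3' end overlaps Tesk1 on the opposite strand. Kdr and Flt4 had enough reads for the test in the wt libraries alone, so they could hardly be called higher. Pgf and Itga1 also had enough reads in every wt library but fell short in Tks5+/- library 2, with 8 and 10 counts. Kdr, the VEGF receptor that works with Nrp1, had 17, 17 and 28 counts in wt libraries 1 to 3, against 0, 0 and 2 in LFs labelled Tks5+/-. The ratio of its summed and scaled counts was 27.8 (exact 95% counting interval 7.38 to 235), with an adjusted p of 2.03e-05. The fitted log2 fold change of Kdr was -4.57, and moved to -7.29 without Tks5+/- replicate 3, which held both of the remaining counts, and to -4.02 without replicate 1. Kdr is also an endothelial marker, and Pecam1, another of them, had 7, 10 and 21 counts in wt LFs, against 0 in each of the others. Pgf and Vegfb, ligands of the VEGF family that bind neuropilin, changed by -1.70 (SE 0.35, adjusted p = 4.77e-04) and -1.09 (SE 0.26, adjusted p = 0.00142). Vegfa was at 148, 153 and 186 CPM in wt libraries 1 to 3, against 190, 225 and 252 in LFs labelled Tks5+/-. The groups did not overlap, and the log2 fold change of 0.45 was not called (95% interval 0.03 to 0.87, adjusted p = 0.0754). Vegfa was called higher with the length correction (0.56, adjusted p = 0.0288) and without Tks5+/- replicate 1 (0.61, adjusted p = 0.0248).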

How the data were processed

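Per the labels and the study's methods, the authors trimmed Quant-Seq reads with Trim Galore, aligned them to GRCm38 with HISAT2 and then Bowtie2, counted them over UTR regions (at least 300 bp, with 50 bp of flank) and summed them per Ensembl gene. The deposited raw counts are whole numbers per gene and library. The deposited normalized counts, used as a score, were made by the authors with EDASeq. Whether counting kept to 1 strand is not given in the sources used here.

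After filterByExpr, 10346 genes were scaled by TMM and fitted to the raw counts by the robust quasi-likelihood method of edgeR 4.0.16 (R 4.3.3). CPM use the scaled library sizes, and 3 counts equal 1.11 to 1.93 CPM. Symbols, coordinates and lengths come from GENCODE M21 (GRCm38), which matched 55104 of 55364 genes. For single genes, CPM were permuted exactly over the 6 libraries (two-sided). Alternatives were DESeq2 1.42.0, RLE, upper-quartile and library-total scaling, limma 3.58.1 on the normalized table (log2 of the score plus 1) and voom, no filter, at least 10 counts in every library, loess corrections (span 0.5) for length and GC content, a replicate block, and fits without 1 library at a time. The procedure was tested on simulated data.

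The members and lists were chosen with earlier results of these data known. Genes named were the members, the other genes of the family, and of each partner list the called genes with the smallest adjusted p (up to 4 per direction) and Itga1, Itgb1, Gipc1 and Vegfa. Flt4, Cd72, Rhoa, Rac1, Egfl7, Pecam1, Cdh1, Cldn4, Ager, the other small GTPases, Chl1, L1cam, Nrcam, Met, Dpysl5 and genes overlapping a named gene were added after their values were seen. So were Flt1, Ramp2 and the markers named for having enough reads in the wt libraries alone. Smooth muscle, mesothelial, lymphocyte and neural markers were also summed.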

Additional observations from a re-analysis of the deposited data

How the results depend on the processing

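Sema7a, in the 18 alternatives that tested it, and Plxna1, in 19, stayed lower and called. With the length correction members called lower went to 2, with Plxnb2 at -0.38 and Nrp2 at -0.50, and signalling partners called lower to 4 and higher to 6. The length correction and replicate block together gave 2 and 4 again, with Plxnb2 at -0.37 and Nrp2 at -0.50. Library totals moved the median of all genes to -0.465, with 1362 genes called higher and 3944 lower, 2 partners higher, Sema3c at -0.98 and Nrp1 at -1.29, both called. With at least 10 counts in every library Nrp1 was called at -0.94, and 1 other family gene and 3 co-receptors and ligands were lower. Fewer genes are tested there. DESeq2 called 2 other family genes lower. Co-receptors and ligands called higher were 1 with DESeq2, 1 with the GC correction, 1 with the GC correction and block, 2 with the length correction and 2 with length and block. With 1 library left out they were 0 to 1, Nrp1 ranged from -1.18 to -0.59 and Sema5a from -0.22 to 0.32. The cause of these moves was not tested.

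Uncalled values near 0 changed sign. Sema3a was at 0.03 with the length correction. Sema5a was at 0.00035 with DESeq2, 0.02 with RLE scaling, 0.13 with the authors' normalized counts, 0.69 with the length correction and 0.70 with length and block. Sema4b was at 0.01 with DESeq2, 0.27 with the authors' counts, 0.0043 with voom, 0.03 with the block, 0.16 with length, 0.19 with GC, 0.26 with GC and block, 0.22 with length and block, and -0.23 to 0.45 with 1 library left out. Itgb1 was at -0.33 with library totals, -0.39 with the authors' counts, -0.03 with GC, -0.04 with GC and block, and -0.05 to 0.23 with 1 library left out. Gipc1 was at -0.30 with library totals, -0.20 with length and -0.20 with length and block.

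Libraries with the same replicate number did not deviate together (correlations -0.001, -0.064 and 0.082), so the numbers were not taken to pair samples. The replicate block gave 2360 genes higher and 2308 lower, with 4 members lower and 0 higher. The 39 and 6 summed counts of Sema7a leave its size uncertain, and leaving out 1 library moved it beyond its counting interval.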

Other observations

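Tks5+/- library 1 held more reads of several guidance and adhesion genes than any other library. Chl1, an adhesion molecule that can associate with Nrp1, had 2, 2 and 1 counts in wt libraries 1 to 3, against 96, 1 and 8 in LFs labelled Tks5+/-. L1cam, a co-receptor for Sema3a, had 1, 0 and 2 and then 11, 1 and 0. Sema6a, a membrane semaphorin, had 4, 8 and 9 and then 18, 1 and 0. Plxna2 (9 counts, at most 6 elsewhere), Nrcam (5, at most 2), Met (28, at most 19) and Dpysl5 (4, 0 elsewhere) were highest there too. Of these genes only Met was tested, and it was not called, and they were picked after their values were seen.

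Markers of other cell types were summed as well. The 6 mesothelial markers came to 27.8 to 38.6 CPM in wt LFs and 5.12 to 14.3 in LFs labelled Tks5+/-, with 2 of 2 tested lower. The 7 smooth muscle and pericyte markers came to 447 to 507 and 606 to 726 CPM, although 4 of 6 tested were lower and 1 higher. The 6 neuron and glia markers came to 142 to 314 and 70.6 to 91.1 CPM, with 1 of 1 tested lower. The 6 lymphocyte markers came to 3.21 to 6.44 and 2.74 to 4.10 CPM, and none was tested. The 10 epithelial markers came to 22.5 to 59.0 and 29.2 to 62.0 CPM, with 1 of 2 tested higher and 1 lower. Ager alone gave 37.3, 60.3 and 29.2 CPM of the sums of 37.3, 62.0 and 29.2 in LFs labelled Tks5+/-, where Cdh1 was at 0 in each library and Cldn4 at 0, 1.76 and 0 CPM. Of the 9 tested macrophage markers 5 were lower, and of the 10 fibroblast markers 4 were higher and 2 lower. The shares over all tested genes were 22.1% called lower, 22.8% higher and 44.9% in either direction. Among the lower markers, Cd68, Adgre1, Itgax, Cybb, Upk3b, Upk1b, Cspg4 and Cldn4 had enough reads for the test in the wt libraries alone. A call of higher was thus hardly possible for these markers. The part of these cell types in the values of the semaphorins, plexins and neuropilins was not tested.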
